A study of Homo sapiens with 6 samples.

Results

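The genes that encode the proteins of the small subunit of the cytosolic ribosome were compared between libraries labelled HepG2, a cell line from a human liver tumour, transfected with siRNA to the long non-coding RNA HOTAIR (siHOTAIR) or with negative control siRNA (siNC). Members were the rows of the authors' deposited table whose NCBI gene ID belongs to a protein-coding gene with the symbol RPS and a number, with an A or X suffix allowed, or with the symbol RPSA, FAU or RACK1. The rule found 33 genes among 19589 features, and all 33 had an adjusted p-value. The libraries were made from total RNA without ribosomal RNA, and the labels give 3 to each group, with no time after transfection. Separate cultures are not stated in the labels, and the p-values therefore cover a spread among libraries that may be technical only.

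The small subunit binds messenger RNA and decodes it, and each of its proteins is present in 1 copy per ribosome. It has a head, which with the body encloses the path of the messenger RNA, and a platform near the exit of that path. Messenger RNAs of ribosomal proteins begin with a C followed by a run of pyrimidines, the 5′ terminal oligopyrimidine (TOP) motif, through which the kinase mTOR and the RNA-binding protein LARP1 control their translation and stability as a group.

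The start sites of the members are shown first because this shared run of pyrimidines is the sequence by which these messenger RNAs are known. RefSeq promoter sequences of build GRCh38.p14 were present for 26 of the 33 members. A run of at least 5 pyrimidines that began with a C exactly at the annotated start was found in 19 of the 26 members (73.1%), against 1104 of 27305 promoters in the RefSeq table (4.04%). The runs of the 19 members were 6 to 14 bases long. With the run allowed to begin within 10 bases of the annotated start, the counts were 24 of 26 members (92.3%) and 9091 of 27305 promoters (33.3%). Each line gives 15 bases before and 15 bases from the annotated start, 5′ to 3′, with the pyrimidine run at the start in capitals; the last 4 have no such run there.
RPS24 (chr10:78033848-78033877, plus strand): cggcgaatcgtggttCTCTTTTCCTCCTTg
RPS12 (chr6:132814554-132814583, plus strand): gcgtgcggatgaggcCTCTTTCCCTgccgc
RPS6 (chr9:19380222-19380251, minus strand): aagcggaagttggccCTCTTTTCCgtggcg
RPSA (chr3:39406705-39406734, plus strand): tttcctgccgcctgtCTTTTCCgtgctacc
RPS10 (chr6:34426055-34426084, minus strand): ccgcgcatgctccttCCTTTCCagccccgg
RPS19 (chr19:41860240-41860269, plus strand): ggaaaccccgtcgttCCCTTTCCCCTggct
RPS13 (chr11:17077653-17077682, minus strand): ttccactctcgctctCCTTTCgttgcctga
RPS28 (chr19:8321481-8321510, plus strand): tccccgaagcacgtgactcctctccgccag
RPS27A (chr2:55231888-55231917, plus strand): taaggagtgacacacaagacccagactctt
RPS4X (chrX:72277234-72277263, minus strand): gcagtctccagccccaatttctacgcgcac
RPS29 (chr14:49598696-49598725, minus strand): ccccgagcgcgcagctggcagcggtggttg

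Of the 7 members without a run exactly at the start, 5 had one that began within 10 bases, and RPS4X and RPS29 had none in that range. The 19 members with the run at the annotated start had a median log2 fold change of 0.44 in the authors' deposited table, and 14 of them passed an adjusted p of 0.05. The 7 without it had a median of 0.33 there, and 5 passed. Of all features with a mean of at least 1000, 42% were called higher there. A link between the run and the fold change was not tested. In the whole 300 base promoters (250 bases before to 50 after the start, both strands), CCGGAAG, a core of ETS family sites, was present in 9 of 26 members (34.6%) and in 10.7% of all promoters. AAGATGGC, a YY1 site core, was present in 4 members (15.4%) and in 3.03% of all promoters. TATAAA was present in 2 members (7.69%) and in 11.9% of all promoters, and CACGTG in 1 member (3.85%), RPS28, where it lies in the printed window, and in 7.43% of all promoters.

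For each feature the authors' deposited table holds a mean normalized count over libraries, a log2 fold change, its standard error and p-values. Whole reads of 5 libraries, 3 siHOTAIR and 2 siNC, add up to these means, so 1 labelled siNC library is not behind the values. The reads of each member in each library were recovered from its deposited mean and fold change, as described under the processing. Libraries are called A, B and C within a group by falling size factor, which was 1.19 and 0.893 for siNC A and B and 1.15, 0.934 and 0.888 for siHOTAIR A, B and C. These letters are not the replicate numbers of the labels. The reads recovered over all features summed to between 6635353 and 8931521 per library. HOTAIR itself had normalized counts of 202 and 150 in siNC and of 62.4, 78.2 and 59.7 in siHOTAIR, and its log2 fold change in the authors' deposited table was -1.37 (SE 0.197, adjusted p 5.6e-11). The hepatocyte and HepG2 markers APOA1, APOA2, SERPINA1, FGB, TF and AHSG, which hepatocytes make in bulk, had means of 0.167 to 0.382 in the authors' deposited table, at or near 0, whereas the epithelial keratin KRT7 had 11514. Of 4 fibroblast and stellate cell markers tested, COL1A1, PDGFRB and DCN rose, by 0.86, 1.24 and 1.77 on the log2 scale in the authors' deposited table, and 0 fell. DCN rested on few reads, 5 and 3 in siNC and 26, 15 and 16 in siHOTAIR. The summed normalized count of the fibroblast list was 1234 to 1236 in siNC and 2147 to 2528 in siHOTAIR, mostly from COL1A1. Of 3 endothelial markers tested, VWF rose by 1.85 (adjusted p 0.00609) in the authors' deposited table. Its reads were near the floor, 0 and 1 in siNC and 8, 5 and 12 in siHOTAIR. The endothelial list summed to 72.0 to 73.9 in siNC and 87.8 to 118 in siHOTAIR, mostly from another, more abundant marker. Of 2 leukocyte markers tested, CD68 fell by 0.47 (adjusted p 0.0101) in the authors' deposited table, and the list summed to 183 to 201 in siNC and 122 to 148 in siHOTAIR. Of 3 markers of other epithelia tested, NKX2-1 fell by 0.59 (adjusted p 0.0147) in the authors' deposited table. That list summed to 11318 to 12538 in siNC and 10757 to 11863 in siHOTAIR, mostly from KRT7. The part of cell makeup in the results was not tested.

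The small subunit genes were abundant. The authors' deposited table gives them mean normalized counts between 1104 (RPS10) and 25319 (RPS2), with a median of 8620, which summed to 3.33% of all mean normalized counts. Per kilobase of coding sequence (GENCODE 29), the mean level ran from 2231 for RPS10 to 43089 for RPS27, with a median of 19535. RPS10, RPS12 (6209) and FAU (6105) were the lowest on this scale, and 16 members lay above 20000. A read-through gene, RPS10-NUDT3, shares the exons of RPS10 and had a mean of 2.28. By symbol, RefSeq lists 3 (RACK1) to 74 (RPSA) pseudogenes per member. RPS25, RPS27A and RPS28 overlap parts of CENATAC, CLHC1 and KANK3 in GRCh38.p14. The labels do not describe how reads that fit more than 1 place or gene were counted, so levels of the members are uncertain to that extent.

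In the authors' deposited table every one of the 33 members had a positive log2 fold change; 24 rose at an adjusted p of 0.05 while 0 fell. Among all 14597 features tested 20% were called higher and 20.4% lower, and among the 1976 features with a mean of at least 1000, the range of the members, 42% were called higher and 20.9% lower. The members' log2 fold changes ran from 0.12 to 0.76 with a median of 0.40, a fold of 1.32, against medians of 0.01 over all features tested and 0.12 over features with a mean of at least 1000. No member changed by as much as 2-fold, and 0 of the 33 are in the authors' own list of 766 differential features. Recentred on the median of features with a mean of at least 1000, the members that rose numbered 13, where 13.4% of all features tested and 29.1% of those with a mean of at least 1000 were called higher. The median of the members was then 0.28, while the share of all calls that were higher went from 49.6% to 32.4%. In bulk RNA, more cells of a type and more RNA per cell cannot be told apart.

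**Figure D1:**
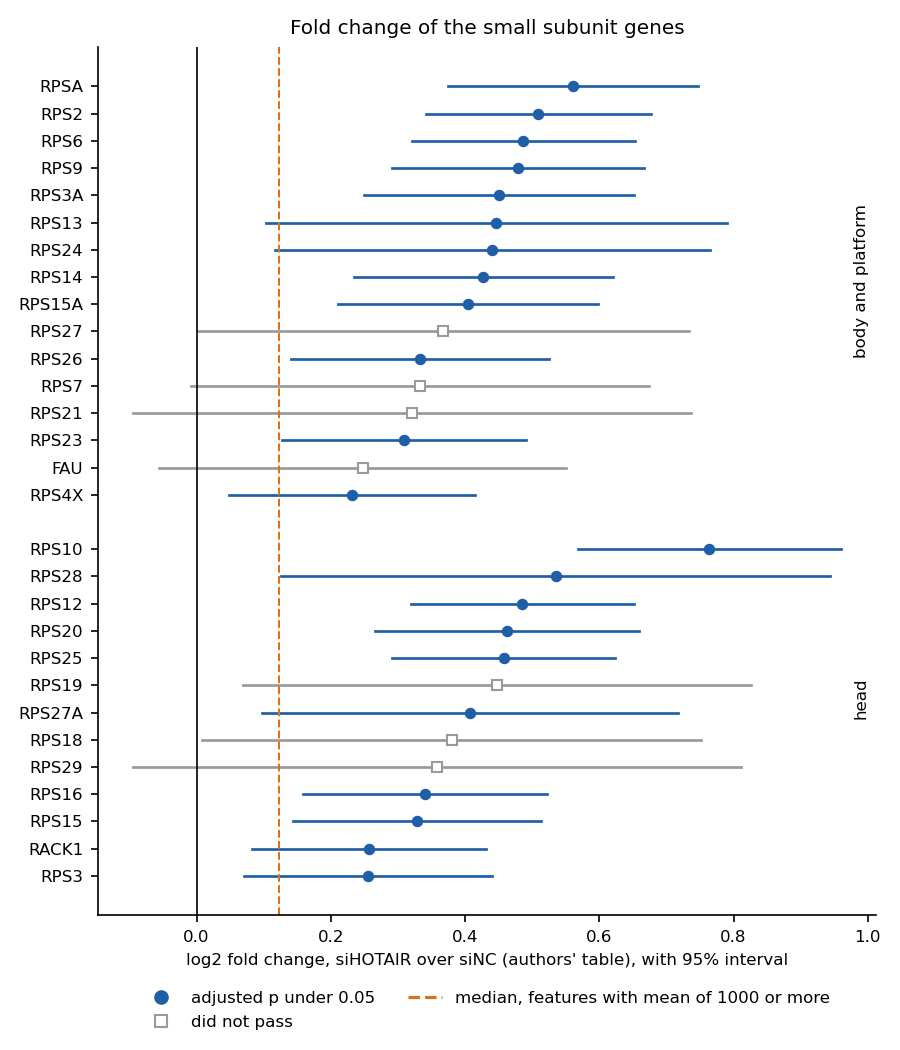
Log2 fold change of siHOTAIR over siNC for 29 of the 33 members, with 95% intervals from the deposited standard errors, grouped into body and platform (top) and head (bottom). All 29 points lie above 0, 22 pass an adjusted p of 0.05 (filled circles), and the dashed line marks the median of 0.12 of features with a mean of at least 1000.

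The 2 siNC libraries were far apart in these genes. Summed over the 33 members, the normalized count was 233701 in siNC A and 295396 in siNC B, and 365144, 340993 and 330745 in siHOTAIR A, B and C. The 3 siHOTAIR libraries were thus above both siNC libraries in the sum (345627 ± 17662, SD, n = 3, against 264548 ± 43625, SD, n = 2), and the ratio of the group means was 1.31, or 1.17 against siNC B alone. In every one of the 33 members siNC A was the lowest of the 5 libraries, and in 29 siHOTAIR A was the highest. The log2 ratio of siNC B to siNC A ran from 0.19 to 0.57 over the members with a median of 0.37, against medians of 0.01 over the 14499 features tested with recovered reads and 0.05 over the 1914 of them with a mean of at least 1000.

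**Figure D2:**
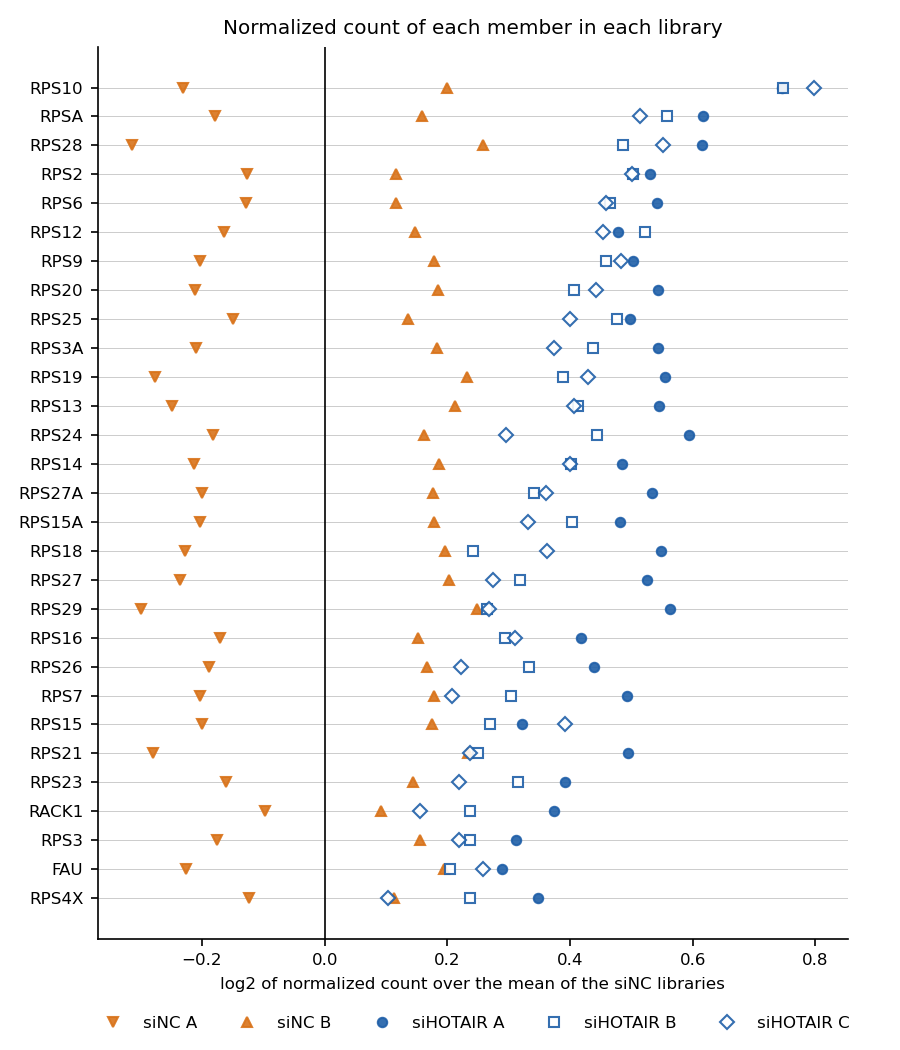
Normalized count of 29 of the 33 members in each of the 5 libraries, as the log2 ratio to the mean of the siNC libraries, with members in order of their deposited fold change. siNC A (downward triangles) is the lowest library in all 29 and siHOTAIR A (filled circles) the highest in 26, with siNC B between siNC A and most siHOTAIR points.

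Every siHOTAIR library was above both siNC libraries in 30 of the 33 members, and RPS4X was among the exceptions. The same held for 31.3% of all features tested with recovered reads and for 47.5% of those with a mean of at least 1000. The log2 ratio of the siHOTAIR mean to siNC B alone had a median of 0.23 over the members and ran from -0.04 to 0.56 for RPS10, against a median of 0.08 over features with a mean of at least 1000. Against siNC A alone the median was 0.61, against 0.15 over those features.

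Limma-voom on the recovered reads, chosen after seeing the data, called 32 of 33 members higher, where 23% of all features tested and 41.3% of those with a mean of at least 1000 were called higher. Without siNC A it called 17 members, against 33.1% of features with a mean of at least 1000, and that fit assumes that siNC B varies like the siHOTAIR libraries. These 17 (among them RPSA, RPS2, RPS3A, RPS6, RPS9, RPS10, RPS12, RPS13, RPS14, RPS15A, RPS19, RPS20, RPS24, RPS25, RPS27A and RPS28) were also called with any other single library left out. The 8 members that passed in the authors' deposited table and not without siNC A included RPS3, RPS4X, RPS15, RPS16, RPS23, RPS26 and RACK1. Of the 24 members called in the authors' deposited table, limma-voom lost 2 without siHOTAIR A, RPS4X (adjusted p 0.111) and RACK1 (adjusted p 0.0611). Without siHOTAIR B it lost 4, among them RPS3, RPS4X and RACK1 (adjusted p 0.0573, 0.119 and 0.0657), and it lost 0 without siHOTAIR C or siNC B.

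**Figure D3:**
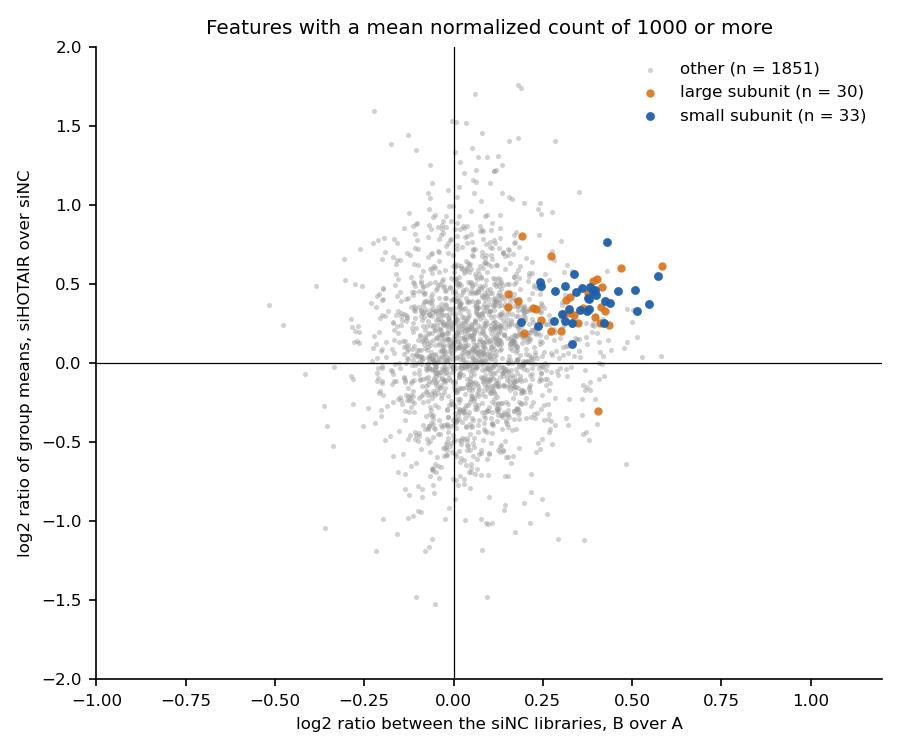
Each point is a feature with a mean of at least 1000 and recovered reads; the horizontal axis is the log2 ratio of siNC B to siNC A and the vertical axis the log2 ratio of the siHOTAIR mean to the siNC mean, with 4 points outside the axes. The 33 small subunit genes (blue) and 30 large subunit genes (orange) lie to the right of 0, at a median of 0.37 for the small subunit, while the median of all features shown is 0.05.

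Among the proteins of the head, 11 of 15 genes rose, 0 fell and 4 did not pass, with a median log2 fold change of 0.41 in the authors' deposited table. Of all features with a mean of at least 1000, 42% were called higher there and 20.9% lower. RPS10, a protein at the entry of the messenger RNA path that is ubiquitinated when ribosomes collide, showed the largest fold change of the members. Its normalized counts were 663 in siNC A and 894 in siNC B, and 1305, 1306 and 1353 in siHOTAIR A, B and C. The groups did not overlap, and the log2 fold change in the authors' deposited table was 0.76 (SE 0.1, adjusted p 4.99e-13), or 0.56 by limma-voom without siNC A (adjusted p 1.72e-05). RPS20, a second ubiquitination target on collided ribosomes, had 6400 and 8427 in siNC and 10798, 9829 and 10077 in siHOTAIR. Its log2 fold change in the authors' deposited table was 0.46 (SE 0.1, adjusted p 2.49e-05), with siHOTAIR above both siNC libraries.

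RPS28, at the exit of the messenger RNA path, had 3718 and 5527 normalized counts in siNC and 7083, 6476 and 6773 in siHOTAIR. The gap between its siNC libraries, 0.57 on the log2 scale, was the widest of the members, and the log2 fold change of 0.53 in the authors' deposited table carried an SE of 0.209 (adjusted p 0.0283). RPS12 had 1769 and 2197 in siNC and 2762, 2849 and 2717 in siHOTAIR, and RPS25, which some viral internal ribosome entry sites need, had 3538 and 4309 in siNC and 5540, 5458 and 5176 in siHOTAIR. Both rose in the authors' deposited table, by 0.49 and 0.46 on the log2 scale.

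RACK1, a scaffold for signalling proteins that sits on the back of the head, was among the most abundant members and had one of the smaller fold changes. It had 17471 and 19909 normalized counts in siNC and 24228, 22021 and 20815 in siHOTAIR. The groups did not overlap, but siHOTAIR C was close to siNC B, and the log2 fold change in the authors' deposited table was 0.26 (SE 0.0891, adjusted p 0.0122). RPS3, at the entry of the messenger RNA path, had 14838 and 18658 in siNC and 20791, 19728 and 19488 in siHOTAIR, and rose by 0.25 in the authors' deposited table (SE 0.0943, adjusted p 0.0199). RPS15 and RPS16, whose tails reach the decoding site and the P-site transfer RNA, rose by 0.33 and 0.34 in the authors' deposited table, and RPS27A, made as a fusion to ubiquitin, by 0.41.

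The head genes that did not pass included RPS18, RPS19 and RPS29. RPS19, the gene most often mutated in Diamond-Blackfan anaemia, had 7072 and 10059 normalized counts in siNC and 12582, 11209 and 11536 in siHOTAIR. Its groups did not overlap, and its log2 fold change of 0.45 in the authors' deposited table had an adjusted p of 0.0507. RPS29, the shortest member, had 2267 and 3312 in siNC and 4123, 3351 and 3357 in siHOTAIR, where only siHOTAIR A was clearly above siNC B. The fold changes of RPS18 and RPS29 in the authors' deposited table were 0.38 and 0.36 (adjusted p 0.0976 and 0.219). The signal recognition particle RNA gene RN7SL1 lies inside RPS29 on the opposite strand, and the labels do not describe the strand setting of the counting. RN7SL1 had a mean normalized count of 35125 in the authors' deposited table, against 3282 for RPS29, and fell by 0.81 on the log2 scale there (adjusted p 1.03e-11). Its part in the counts of RPS29 was not tested.

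Among the proteins of the body and platform, 13 of 18 genes rose, 0 fell and 5 did not pass, with a median log2 fold change of 0.39 in the authors' deposited table. Of all features with a mean of at least 1000, 42% were called higher there and 20.9% lower. RPSA, a protein between head and body that is also known as the laminin receptor and is mutated in isolated congenital asplenia, had 12666 and 15997 normalized counts in siNC and 21987, 21107 and 20470 in siHOTAIR. The groups did not overlap, and the log2 fold change was 0.56 in the authors' deposited table (SE 0.0951, adjusted p 4.04e-08). RPS2, at the entry of the messenger RNA path, had 18472 and 21868 in siNC and 29140, 28562 and 28551 in siHOTAIR. The siHOTAIR libraries were close together (28751 ± 337, SD, n = 3), and the log2 fold change in the authors' deposited table was 0.51 (SE 0.0854, adjusted p 2.87e-08). RPSA and RPS2 had the largest log2 ratios to siNC B alone after RPS10, at 0.41 and 0.39.

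RPS6, the substrate of the S6 kinases downstream of mTOR, had 11591 and 13732 normalized counts in siNC and 18430, 17481 and 17397 in siHOTAIR. It rose by 0.49 in the authors' deposited table (SE 0.0847, adjusted p 9.35e-08), with no overlap between groups. RPS9, which binds ribosomal RNA early in assembly, had 5813 and 7574 in siNC and 9479, 9197 and 9358 in siHOTAIR, a log2 fold change of 0.48 in the authors' deposited table. RPS14, the platform protein encoded in the region lost in the 5q- syndrome, had 5311 and 7003 in siNC and 8616, 8130 and 8127 in siHOTAIR, a log2 fold change of 0.43 in the authors' deposited table. RPS3A, its neighbour on the platform, and RPS13, RPS15A and RPS24 of the body rose by 0.40 to 0.45 there.

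Other body and platform genes had smaller fold changes. RPS4X, the copy on the X chromosome, had 14834 and 17472 normalized counts in siNC and 20549, 19045 and 17354 in siHOTAIR. Its groups overlapped by siHOTAIR C, and its log2 fold change of 0.23 in the authors' deposited table passed at an adjusted p of 0.0348. FAU, which encodes a small subunit protein fused to a ubiquitin-like protein, had 1870 and 2503 in siNC and 2672, 2520 and 2615 in siHOTAIR, where the siHOTAIR libraries were barely above siNC B (0.25 in the authors' deposited table, adjusted p 0.201). RPS23 (a protein of the decoding centre) and RPS26 (at the exit of the messenger RNA path) rose by 0.31 and 0.33 in the authors' deposited table. RPS7, RPS21 and RPS27 had fold changes of 0.33, 0.32 and 0.37 there and did not pass (adjusted p 0.117, 0.231 and 0.104).

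The standard errors of the members fell into 2 groups. Of the members, 21 had standard errors of 0.0845 to 0.102 and 12 had 0.155 to 0.244 (among them FAU, RPS7, RPS13, RPS18, RPS19, RPS21, RPS24, RPS27, RPS27A, RPS28 and RPS29) in the authors' deposited table, with none between. The median log2 fold change was 0.43 in the narrow and 0.37 in the wide group, while 20 of 21 and 4 of 12 members passed. The p-value rests on fold change over standard error, so the lower pass count of the wide group follows in part from the split. The squared spread within groups was also set over the variance of the fitted model. This ratio was 1.0023 to 1.017 in the wide group and 1.13 (RPS2) to 2.48 (RPS10) in the narrow group. The p-values of the narrow group may thus understate the spread of those genes. How the split arose was not tested. The wide group encodes shorter proteins, with a median of 134 residues (56 to 194) against 165 (115 to 317). The siNC libraries differed more in it, by a median of 0.43 on the log2 scale against 0.33, and the coefficient of variation over siHOTAIR libraries had a median of 9.83% against 3.92%. The standard error rises with the spread within groups, so these 2 differences follow in part from the split itself. Of the 1976 features with a mean of at least 1000, 82 (4.15%) had a standard error above 0.15. Among features with a mean of at least 1000 that encode neither subunit's proteins, the share was 27 of 173 (15.6%) at coding lengths up to 500 bases and 3 of 378 (0.794%) above 500 and up to 1000 bases. Over the same length classes the median log2 ratio of siNC B to siNC A in these other features was 0.20 and 0.12, against 0.39 and 0.33 for the 22 and 11 members of those lengths.

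**Figure D4:**
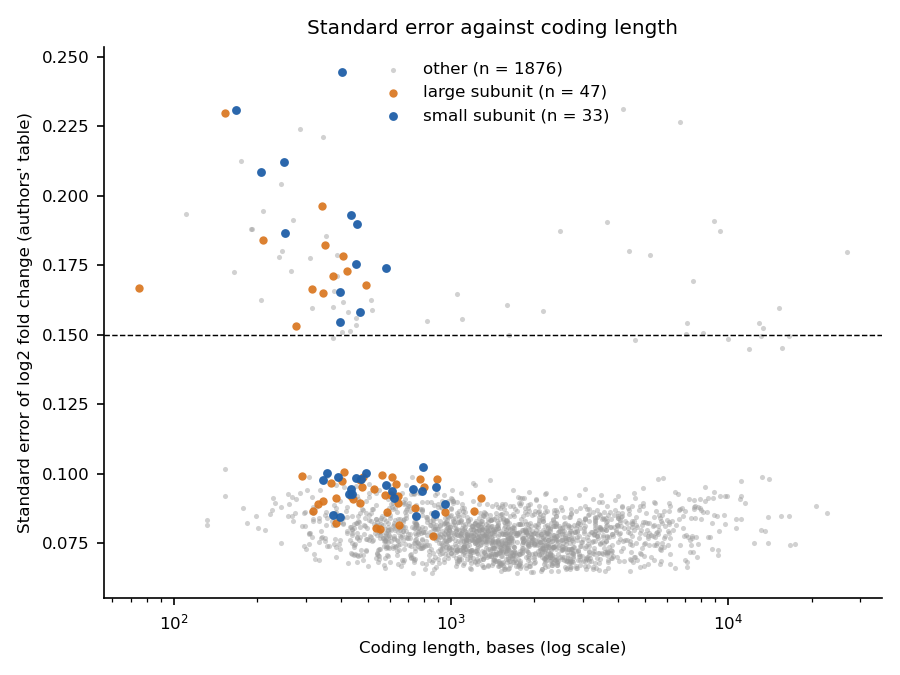
Standard error of the log2 fold change in the authors' deposited table against coding length (log axis) for features with a mean of at least 1000. The 12 members above the dashed line at 0.15 all have coding lengths of up to 582 bases, and 21 members lie in the band near 0.09 with most other features.

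Of the 10 small subunit genes listed for Diamond-Blackfan anaemia, an inherited failure of red cell production, 5 rose (RPS10, RPS15A, RPS24, RPS26 and RPS28), 0 fell, and the median log2 fold change in the authors' deposited table was 0.39. This count lies near the 42% of features with a mean of at least 1000 that were called higher, and nothing is read from it. Of 47 large subunit genes 36 rose and 0 fell, with a median of 0.35 in the authors' deposited table, and RPL36A, RPL17, RPL28 and RPL11 rose by 0.80, 0.68, 0.53 and 0.43. Reads were recovered for 30 of the 47, and siNC B was above siNC A in all 30, by a median of 0.33 on the log2 scale. Of 23 other genes known for TOP messenger RNAs, among them RACK1, 15 rose and 2 fell, with a median of 0.31 in the authors' deposited table. GAS5, a host of small nucleolar RNAs, had 1383 and 1766 normalized counts in siNC and 3560, 3251 and 3208 in siHOTAIR, a log2 fold change of 1.08 in the authors' deposited table. SNHG1, NAP1L1 and EIF3F rose by 0.85, 0.72 and 0.94 there, and EIF4B and EIF3H fell by 0.83 and 0.25.

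Genes that build the subunit were also examined. Of 48 genes of the small subunit processome and of later assembly, 4 rose and 19 fell, with a median of -0.10 in the authors' deposited table. Over all features tested, 20% were called higher and 20.4% lower. FCF1, an assembly factor of the early cleavages of the ribosomal RNA precursor, had 387 and 372 normalized counts in siNC and 87.5, 91.0 and 87.9 in siHOTAIR, a log2 fold change of -2.06 in the authors' deposited table (adjusted p 1.22e-42). UTP14A, UTP18 and IMP3 fell by 1.15, 0.75 and 0.64 there. The helicase gene DHX37 rose by 1.28, the box C/D protein gene NOP56 by 0.74, RRP9 by 0.38 and IMP4 by 0.24 in the authors' deposited table.

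Of 24 initiation factors that bind the small subunit, 9 rose and 5 fell, with a median of 0.08 in the authors' deposited table. Over all features tested, 20% were called higher and 20.4% lower. EIF3A, the largest eIF3 subunit, had 4018 and 3460 normalized counts in siNC and 1490, 1807 and 1620 in siHOTAIR, a log2 fold change of -1.19 in the authors' deposited table. EIF3F and the reinitiation factor DENR rose by 0.94 and 1.03 there, EIF1B by 0.70 and EIF1AX by 0.59, while MCTS1, the partner of DENR, fell by 0.39, EIF3D by 0.30 and EIF2S1 by 0.28. Of 13 escorts, modifiers and quality control factors of small subunit proteins, 6 rose and 2 fell, with a median of 0.16 in the authors' deposited table. ZNF598, the ligase that ubiquitinates RPS10 and RPS20 on collided ribosomes, rose by 0.42, and TSR2, the escort of RPS26, fell by 0.49 there. IPO5, BTF3 and RNF10 rose by 0.30, 0.31 and 0.22, and the importin gene TNPO1 fell by 0.24 in the authors' deposited table.

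Of 18 tested genes for S6 kinases and for regulators of TOP messenger RNAs, 2 rose and 6 fell, with a median of -0.02 in the authors' deposited table. Over all features tested, 20% were called higher and 20.4% lower. EIF4EBP2, a repressor of initiation that mTOR inactivates, had 1335 and 1226 normalized counts in siNC and 328, 333 and 349 in siHOTAIR, a log2 fold change of -1.92 in the authors' deposited table. RPTOR, the mTOR complex partner that recruits its substrates, fell by 0.64, LARP4 by 0.60 and TIA1 by 0.50 there, and LARP1, which binds the TOP motif, and TIAL1 rose by 0.34 and 0.25. Of 29 genes of the mitochondrial small subunit, 4 rose and 9 fell, with a median of -0.03 in the authors' deposited table, and MRPS27 fell by 1.35 and MRPS2 rose by 0.54.

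**Figure D5:**
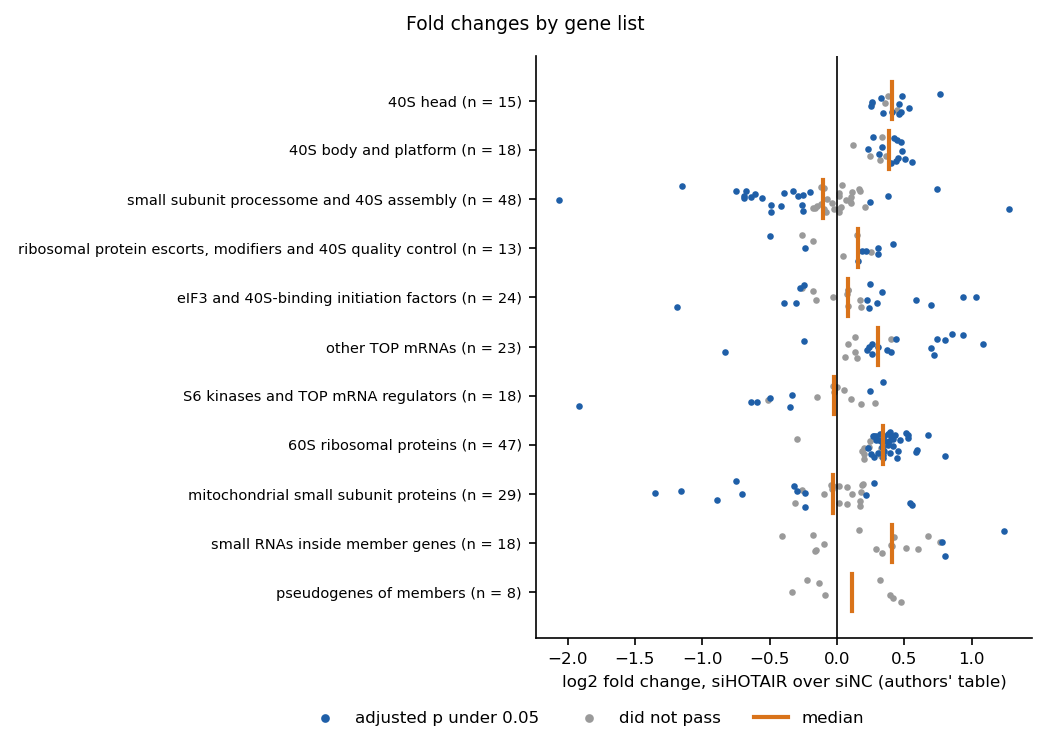
Log2 fold change in the authors' deposited table of each tested gene of the lists, 1 row per list, with the median as an orange bar and genes past an adjusted p of 0.05 in blue; the vertical position within a row is random. The head and body lists have medians of 0.41 and 0.39 and the large subunit list 0.35, while the assembly list has a median of -0.10 with 19 genes lower.

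RPS27L, the paralog of RPS27 and a target of p53, moved the other way. It had 1081 and 1327 normalized counts in siNC and 917, 879 and 786 in siHOTAIR, with no overlap between groups, and fell by 0.48 on the log2 scale in the authors' deposited table (SE 0.0967, adjusted p 6.46e-06). siNC B was above siNC A in RPS27L by 0.30 on the log2 scale, as in the members. Small nucleolar RNAs and microRNAs with a row in the table, on the strand of their host, lie inside 10 member genes, most of them small nucleolar RNAs that guide modification of ribosomal RNA. Of 18 tested, 3 rose and 0 fell, where 20% of all features tested were called higher and 20.4% lower. The count of rises thus lies near the share over all features. SNORA10, inside RPS2, had 51.9 and 52.7 normalized counts in siNC and 89.2, 89.9 and 95.8 in siHOTAIR, with no overlap and a log2 fold change of 0.78 in the authors' deposited table (adjusted p 0.00183). SNORD95, inside RACK1, rose by 1.24 and SNORA33, inside RPS12, by 0.80 in the authors' deposited table, while SNORA64 in RPS2 (0.51, adjusted p 0.123) and SNORD96A in RACK1 (0.43, adjusted p 0.197) did not pass.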

How the data were processed

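Libraries labelled HepG2 were made from total RNA with ribosomal RNA removed and a stranded kit, per the labels' protocols. The submitters' processing notes name HTSeq 0.6.1, DESeq, DESeq2 and the build hg19; for aligner and annotation: not given in the sources used here. As deposited, the deposited tables hold 0 columns of single libraries. Per the file headers, the authors deposited a mean normalized count (a signal: reads divided by size factors), a log2 fold change with its standard error, a test score and p-values with adjusted p-values. The score equals fold change over standard error, and the adjusted p-values equal a Benjamini-Hochberg adjustment over 14597 features. The second deposited table repeats all 19589 rows. Main calls are the authors' adjusted p under 0.05.

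Reads per library were recovered because all 3940 features with a mean up to 2 are whole-number sums of 5 steps, each the worth of 1 read in 1 library. A step's group follows from the sign of the authors' fold change of features with a single read. For larger means, whole reads were searched that give both the deposited mean and, within 1e-07, the deposited fold change of a negative binomial model with a normal prior of variance 1.42; its largest gap on 20 features not used to set it was 9.1e-08. This gave reads for 19363 of 19461 features with reads and for all 33 members, 28 by a single solution and 5 by a solution at least 5 times closer than the next. Means above 12000 were attempted for members only, and 61 other features above that mean were not attempted. Shares and medians over features with recovered reads leave these 61 out, while members of that level are included. In simulated features the recovered reads were right in 40 of 40 with means of 20 to 100, 40 of 40 up to 1000, 20 of 20 up to 5000, 8 of 8 up to 12000 and 4 of 4 above. These reads were drawn from the same model, with an added fold change error well below the largest gap of 9.1e-08. The simulations thus do not test recovery at errors of that size. Normalized counts are reads over size factor. limma 3.58.1 (voom, R 4.3.3) was run on these reads in place of the planned count test. In simulated data it found 3 of 67 features changed by 0.25 on the log2 scale, 23 of 67 at 0.5 and 52 of 66 at 1. At means of at least 1000 it found 1 of 6, 5 of 6 and 6 of 6. It also called 8 unchanged features. The simulated data had the same dispersion for every feature and no added gap between the siNC libraries.

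Identifiers were matched with the RefSeq table of GRCh38.p14 (19108 by gene ID). Coding length is the longest coding sequence of the best-ranked GENCODE 29 transcript. Members and gene lists were chosen with earlier results of these data known. Every member could be named, except that some named items, 4 members among them, are not reported here by name and enter only the counts; of other lists, up to 4 genes per direction by smallest p among those that passed, and small RNAs and pseudogenes with a mean of at least 20. KRT7, the liver markers, RN7SL1 and RPSA2 were chosen after their values had been seen.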

Additional observations from a re-analysis of the deposited data

How the results depend on the processing

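An adjusted p under 0.001 left 12 members higher, and recentring on features with a mean of at least 1000 left 13 members with a median log2 fold change of 0.28; the other planned settings gave 16 to 25 higher, and no setting gave a member lower. Leaving out 1 library with limma-voom gave medians of 0.23 (without siNC A) to 0.61 (without siNC B). With 1 siHOTAIR library left out, it called 27 to 32 members higher. Every siHOTAIR library stayed above every siNC library in 30 to 33 members. That count is 30 with all libraries and cannot fall when 1 is left out, so it is no check. If 6 libraries lay behind the means, the geometric mean of the size factors would be 0.837 in place of 1.004. Recentring on features with a mean of at least 1000 changed the higher calls from 36 to 22 for the large subunit, 4 to 2 for assembly factors, 9 to 5 for initiation factors (lower calls 5 to 9), 6 to 2 for escorts, 2 to 1 for TOP regulators (lower calls of other TOP genes 2 to 1) and 4 to 2 for the mitochondrial subunit. For large subunit genes it gave 1 lower call, as did limma-voom, in place of 0. No paired analysis was possible because the replicate numbers of the recovered libraries are unknown. The planned count tests with other normalizations were not run, and limma-voom on the recovered reads was run in their place; the second deposited table is not another fit. Depth was not limiting for the members, which had at least 792 reads in each library; the small RNAs and most pseudogenes rest on few reads.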

Other observations

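None of the 8 pseudogenes of members with an adjusted p passed in the authors' deposited table. RPS18P9, the most abundant of them, had 219 and 186 normalized counts in siNC and 204, 369 and 256 in siHOTAIR, so siHOTAIR B stood highest. RPS14P3, RPS15AP10, RPS16P5, RPS2P32 and RPSAP9 had means of 20.9 to 39.7 and log2 fold changes of -0.22 to 0.48 in the authors' deposited table. RPSA2, a gene related to RPSA that the rule left out, had 117 and 195 in siNC and 246, 206 and 206 in siHOTAIR (log2 fold change 0.47, adjusted p 0.165 in the authors' deposited table). Of the 24 members for which no pseudogene, paralog or read-through gene has a row, 17 rose, with a median of 0.38 in the authors' deposited table.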
